A study of Mus musculus with 16 samples.

Results

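Microglia that did not take up Aβ42 were compared between old and young mice, and the description covers the genes that reached a mean of at least 20 TPM, the number of transcripts of a gene scaled by its length and by the total of its library, over the 8 Aβ42- libraries, 4 old and 4 young. Of 35869 genes in the deposited table, 8188 reached that mean, and 8187 of them entered the test, which covered 31982 genes in all. The mean was taken over both ages together, and 7151 of the 8188 genes reached 20 TPM in each age group on its own. Just outside the limit lay Lmo1, with a young mean of 18.1 TPM and an old mean of 21.9 TPM, and Fyttd1, at 21.6 and 18.4 TPM, and just inside it Tnfsf13b, at 11.7 and 28.3 TPM, and 4930467K11Rik, at 29.5 and 10.5 TPM. The series holds 16 libraries of brain microglia that were given fluorescent amyloid-β 1-42, the peptide of Alzheimer plaques, sorted by whether they had taken it up, and sequenced as polyadenylated RNA.

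All mice were wild-type C57/Bl6 males, 2 months old in the young and 18 months old in the old group, and 3 mice were combined for each replicate. Cells of both ages were held with 2.5 μM Aβ42 for 2 h and sorted as live CD45int CD11b+ cells without the Aβ42 label, so that every library here is of cells that met the peptide, and no library of cells without it was used. The sample labels list the peptide only for the Aβ42+ sorts, which by the sorting scheme share their cell preparations with the Aβ42- sorts. The sorting method speaks of 4 mice of each age, which leaves unclear how the pools were made. Old mice came from the National Institute of Aging colony and young mice from the house colony or the same institute, so that age and source cannot be told apart. The p-values below measure the spread between 4 pools of each age.

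Microglia are the resident macrophages of the brain. At rest they carry sensors such as the purine receptor P2ry12 and the chemokine receptor Cx3cr1 under the control of transforming growth factor β, and in aged or plaque-bearing brain a fraction of them lowers these genes and raises others for lipid handling, lysosomal digestion and phagocytosis. Microglia divide rarely in the healthy adult brain. Enzymatic dissociation of brain at warm temperature is known to raise immediate early genes, heat shock genes and cytokines in these cells. Other CD11b+ cells, among them neutrophils, monocytes and their precursors, can enter a brain preparation from blood, meninges and skull marrow.

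For 3 of the gene groups below, promoter elements are known, and 6 promoters are shown. They were chosen by low p from list genes of at least 20 TPM whose 125 bases before the start held the element searched. A match in each was therefore fixed by the choice. The sequences are the 125 bases before the transcription start, taken from RefSeq on GRCm38.p6, the assembly also called mm10, and written 5′ to 3′ on the strand of the gene. The first 3 belong to cell cycle genes that rose in old libraries, and capitals mark the CCAAT box, searched as CCAAT on both strands.
Mcm3: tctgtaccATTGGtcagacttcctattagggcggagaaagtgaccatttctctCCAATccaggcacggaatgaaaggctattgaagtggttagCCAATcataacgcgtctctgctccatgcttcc
Cdca8: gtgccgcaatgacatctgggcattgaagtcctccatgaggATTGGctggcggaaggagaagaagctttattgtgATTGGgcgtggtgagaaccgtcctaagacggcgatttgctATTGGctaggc
Ccnb2: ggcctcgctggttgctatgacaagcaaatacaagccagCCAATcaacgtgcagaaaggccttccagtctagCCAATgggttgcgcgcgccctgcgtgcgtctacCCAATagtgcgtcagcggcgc
Mcm3 is at chr1:20820313-20820437, minus strand, Cdca8 at chr4:124936918-124937042, minus strand and Ccnb2 at chr9:70421555-70421679, minus strand. Each holds 3 matches, in Ccnb2 beginning 87, 54 and 21 bases before the start. Within 250 bases before the start, 26 of 34 promoters of the proliferation list held the box (76.5%), beside 37.0% of the 5731 genes of at least 20 TPM with a promoter and 34.5% of 27025 promoters in all. The box also lay in 13 of 22 promoters of the heat shock list (59.1%), 7 of 15 of the homeostatic list (46.7%) and 7 of 19 of the interferon list (36.8%). The next sequences belong to interferon-stimulated genes, with the interferon-stimulated response element, searched on both strands as GAAA, any 2 bases and GAAA again, in capitals.
Ifitm2: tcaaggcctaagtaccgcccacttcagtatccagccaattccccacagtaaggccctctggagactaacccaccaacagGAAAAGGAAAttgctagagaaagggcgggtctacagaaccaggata
Ifit1: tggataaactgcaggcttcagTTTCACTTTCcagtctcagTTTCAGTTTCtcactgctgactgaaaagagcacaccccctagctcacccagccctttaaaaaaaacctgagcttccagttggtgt
Ifitm2 is at chr7:140955962-140956086, minus strand, and Ifit1 at chr19:34640764-34640888, plus strand. The stretch of Ifitm2 lies inside the annotated span of the gene, chr7:140954837-140959686, and so precedes an inner start. The element lay in 9 of 19 promoters of the interferon list (47.4%), beside 2.81% of the genes of at least 20 TPM and 3.04% of all promoters. The last sequence is of the heat shock gene Hspb1, with the heat shock element, searched as GAANNTTC on both strands, in capitals.
Hspb1: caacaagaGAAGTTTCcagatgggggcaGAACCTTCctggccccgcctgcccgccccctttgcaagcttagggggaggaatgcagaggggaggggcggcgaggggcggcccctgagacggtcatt
It is at chr5:135887794-135887918, plus strand. The element lay in 5 of 22 promoters of the heat shock list (22.7%), beside 4.99% and 6.78%. Of the other 3 motifs searched, the CHR element TTTGAA lay in 9 of the 34 proliferation promoters (26.5%, beside 16.3% of all), the E2F core TTCCCGC in 3 (8.82%, beside 3.84%), and the PU.1 core GAGGAAG followed by T in 0 of 15 promoters of homeostatic microglia genes (beside 2.44%). A match of letters describes the promoter and does not show that a factor was bound there.

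The libraries were first read for the cell types they hold. Of 10 microglial markers, all were above 20 TPM on average, and their summed level lay between 2324 and 2349.8 TPM in young and between 1353 and 1969.5 TPM in old libraries (exact permutation p = 0.0286, the smallest that 4 against 4 libraries can give). All 11 neutrophil markers were also measured, at a summed 7003 to 9277 TPM in young and 7696 to 10465 TPM in old libraries (exact permutation p = 0.314), above the microglial sum in every library. All 11 had a fold change above 0. In 4 of them every old library lay above every young one, against 15.9% of all genes of at least 20 TPM. The neutrophil alarmin gene S100a8 alone read 983 to 1519.8 TPM in young and 1071 to 1628 TPM in old libraries. The 4 granulocyte precursor markers summed to 1044 to 1767 TPM in young and 1676 to 2865 TPM in old libraries (exact permutation p = 0.0571). In the Aβ42+ sorts the same precursor sum was 72.2 to 136 TPM in young and 141 to 781 TPM in old libraries. The label of microglia therefore describes only part of the RNA, and in these bulk samples fewer cells of a type and less RNA per cell cannot be told apart.

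**Figure D1:**
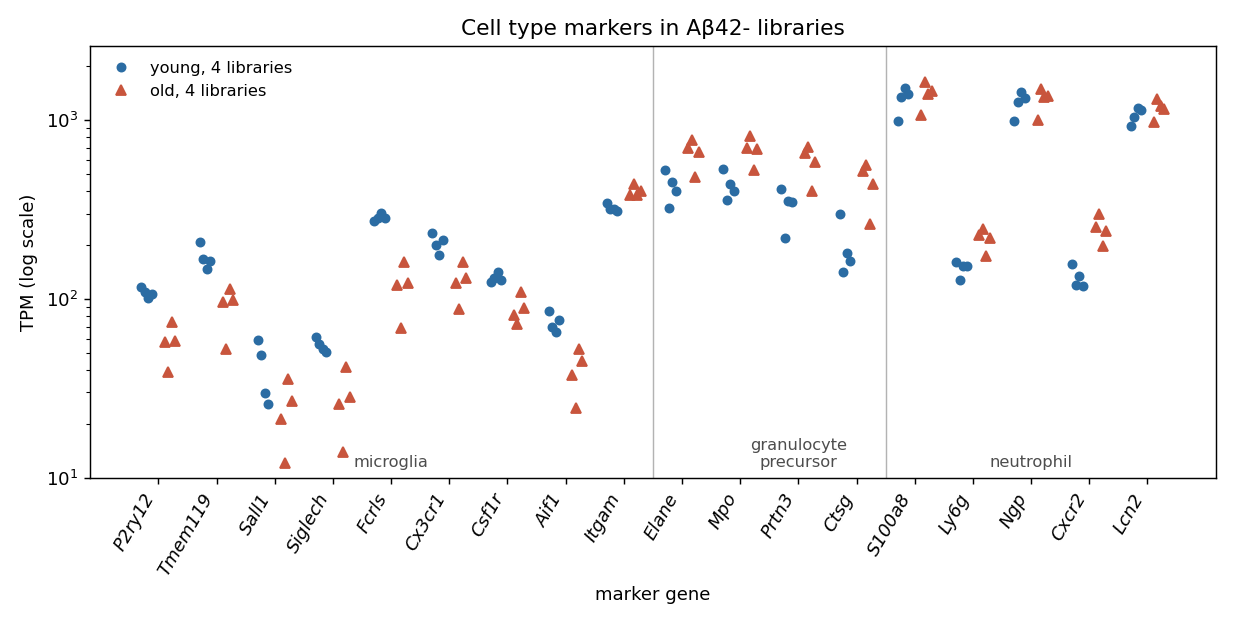
TPM on a log axis of 9 microglial, 4 granulocyte precursor and 5 neutrophil marker genes, with 1 point for each of 4 young and 4 old Aβ42- libraries. Microglial markers other than Itgam sit lower on average in the old libraries, and granulocyte precursor markers sit higher on average.

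Of the remaining marker lists, monocyte markers summed to 972 to 1193 TPM in young and 1164 to 1392 TPM in old libraries. B cell markers summed to 56.8 to 129.7 and 112 to 357 TPM, and T and NK cell markers to 400.3 to 574 and 334 to 477 TPM. Border-associated macrophage markers summed to 65.2 to 95.7 and 76.9 to 131 TPM. Hemoglobin and other erythroid markers reached 5038 TPM and choroid plexus markers 887 TPM in young replicate 4, against at most 1898 and 87.0 TPM in the other 7 libraries. Neuron, astrocyte, oligodendrocyte and endothelial markers each summed to at most 119 TPM in any of the 8 libraries. No marker list had a gene at 0 in all 8 libraries. Reads also lay over genes that microglia are not known to use, and the mean level of 1458 olfactory and vomeronasal receptor genes, trimmed by 10% at each end, was 0.548, 4.24, 5.46 and 4.48 TPM in young and 0.327, 0.778, 2.88 and 1.24 TPM in old libraries (3.68 ± 2.15 against 1.31 ± 1.11, mean ± SD, n = 4, exact permutation p = 0.114). This background level was lower in old libraries on average, with overlap, and fits in which it was subtracted or entered as a covariate are given with the counts.

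Among the 8187 genes of at least 20 TPM that were tested, 521 were higher in old Aβ42- libraries (6.36%) and 73 lower (0.892%) at an adjusted p of 0.05 by limma. Over all 31982 genes tested, 554 were higher (1.73%) and 133 lower (0.416%). At an unadjusted p under 0.05 the genes of at least 20 TPM numbered 2551 higher and 1127 lower, and 2066 and 1859 with trimmed mean factors from genes of at least 20 TPM, while all genes tested numbered 3388 higher and 4298 lower. The counts of calls in the gene lists below are to be read against the shares of 6.36% and 0.892%. In 1301 of the 8187 genes every old library lay above every young one (15.9%), and in 645 every old library lay below (7.88%), against 5.96% and 5.07% of all genes tested. List counts without overlap are to be read against 15.9% and 7.88%, and counts of fold changes above 0 against 5111 of 8187. The median log2 fold change of the 8187 genes, old over young, was 0.16, against -0.56 over all genes tested. The count of calls rested on single libraries. Without old replicate 1 it was 0 in both directions, with 1920 higher and 854 lower at an unadjusted p under 0.05. Without young replicate 2, 3 or 4 the calls were 8, 3 and 8 higher and 0, 1 and 0 lower, without old replicate 2 or 4 they were 8 and 2 higher and 2 and 0 lower, and without young replicate 1 or old replicate 3 they were 2652 and 1884 higher and 869 and 718 lower. Scaling moved the split as well, to 752 higher and 400 lower with trimmed mean factors from genes of at least 20 TPM, 697 and 314 with quantile normalization, 24 and 0 with upper quartile factors, 53 and 3 with the background level subtracted, and 1 and 0 with trimmed mean factors from all genes or with median-of-ratios factors. The last pair, called the all-gene factors below, moved the median of the genes of at least 20 TPM to 0.67 and 0.59, so that a fold change is read here against the median of all such genes. The direction of all 594 called genes held in every fit but that with trimmed mean factors from all genes, where it held in 593. These genes were chosen for their difference in the same libraries, so this is no independent evidence of their direction.

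**Figure D2:**
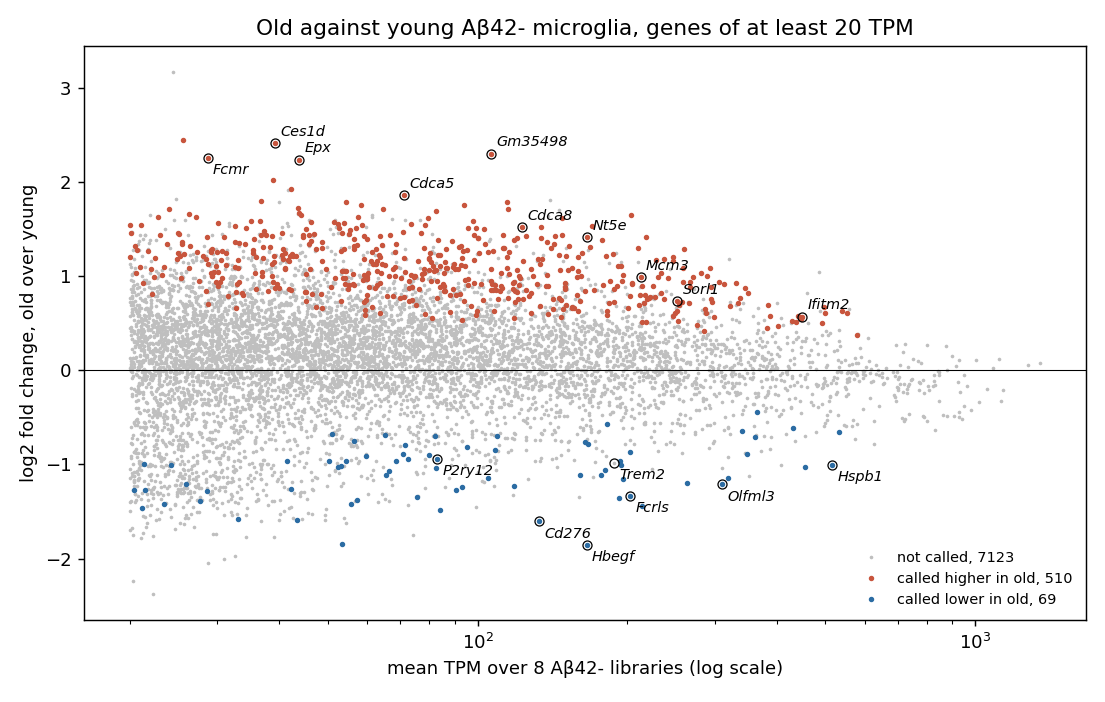
Log2 fold change, old over young, against mean TPM (log axis) of each gene of at least 20 TPM other than short RNA genes, with 510 genes called higher in red, 69 called lower in blue and 17 described genes circled. The spread narrows toward high TPM, and Trem2 is circled as a gene that was not called.

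Fold changes shrank with level. Their SD across genes, short RNA genes left out, was 0.70 for 3457 genes of 20 to 50 TPM, 0.54 for 3262 of 50 to 200 TPM, 0.43 for 807 of 200 to 500 TPM and 0.28 for 176 of at least 500 TPM. The highest gene reached 1198 to 2378 TPM in these libraries, and 5 to 38 genes passed 1000 TPM. Duplicate reads had been removed from single-end reads by the authors, and the part of that step in this narrowing was not tested. Of the 521 and 73 called genes 450 and 63 were protein-coding, beside 6961 of all 8187. Short RNA genes made up 485 of the 8187, of which 11 were called higher and 4 lower, and 1 of them, Mir6395, is described singly, in the comparison by uptake.

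The 10 largest increases were taken among called genes in which every old library lay above every young one. Of these, 7 had a young mean under 20 TPM and reached the limit only through the old libraries. The others were Gm35498, Cdca5 and BC100530. In the same way Slc46a1, Nid2 and Gm3960 of the 10 largest falls reached it only through the young libraries. Of the 10 increases, 3 overlap or adjoin each other on chromosome 1 of GRCm38.p6. They are A530032D15Rik (chr1:85088139-85110297), the lncRNA A530040E14Rik (chr1:85106093-85114038) and the pseudogene Gm35498 (chr1:85111871-85118523) in a repeated stretch of genes related to Sp100, so that reads could be split among copies and each value is uncertain. Gm35498 read 58.9, 29.2, 31.9 and 26.4 TPM in the 4 young and 187, 182, 151 and 184 TPM in the 4 old libraries, with no overlap (log2 fold change 2.30 ± 0.23, SE, adjusted p = 0.00882). A530032D15Rik rose by log2 2.44 (adjusted p = 0.00882) and A530040E14Rik by 1.92 (adjusted p = 0.00705). Ces1d, a carboxylesterase that hydrolyses lipid esters, read 9.1, 12.1, 9.91 and 14.6 TPM in young and 74.8, 89.2, 40.9 and 62.8 TPM in old libraries, again with no overlap (log2 fold change 2.42 ± 0.25, adjusted p = 0.00882). Fcmr, the receptor for IgM of B cells, rose by log2 2.26 (adjusted p = 0.0498), and the B cell receptor chain gene Cd79a read 25, 18.9, 47.4 and 67.9 TPM in young and 164, 68.7, 111 and 110.3 TPM in old libraries without passing the test (log2 fold change 1.59 ± 0.40, adjusted p = 0.0653). Old and young libraries stood apart in Cd79a too, while for the other genes named here this was a condition of the choice. Epx, the eosinophil peroxidase gene, rose by log2 2.24 (adjusted p = 0.036) from 20.5, 19.9, 8.86 and 9.44 TPM to 62.5, 112, 40.1 and 76.5 TPM, lowest among old libraries in replicate 3. Abca13, a large lipid transporter gene, rose by log2 2.02 and was also lowest among old libraries in replicate 3 (78.9, 78, 24.7 and 71.4 TPM in replicates 1 to 4). Cdca5, which encodes the cohesin protector sororin, rose by log2 1.86, the kinetochore gene Nuf2 by 1.80 and BC100530, a member of the stefin family of near-identical protease inhibitor genes and uncertain for that reason, by 1.79, with adjusted p of 0.0416, 0.045 and 0.00754.

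The 10 largest falls, taken among called genes without overlap, included genes of growth factor signalling, membrane and matrix. Hbegf, an epidermal growth factor receptor ligand, read 225, 276, 235 and 283 TPM in young and 48.3, 41.2, 114 and 102 TPM in old libraries (log2 fold change -1.86 ± 0.31, adjusted p = 0.0367). Cd276, the immune checkpoint ligand B7-H3, read 238, 212, 133 and 209 TPM in young and 61.8, 33.9, 91.6 and 81.8 TPM in old libraries (log2 fold change -1.60 ± 0.30, adjusted p = 0.0424). Old replicate 3 lay nearest the young libraries in Hbegf. That no old library reached the lowest young one was a condition of the choice of both genes. Ptrf, which encodes the caveolar coat protein cavin-1, fell by 1.85 on the log2 scale, Ecscr, an endothelial surface protein gene, by 1.59 and Slc46a1, the proton-coupled folate transporter, by 1.58 (adjusted p = 0.0387, 0.045 and 0.0498). Endothelial markers summed to 33.6 to 90.1 TPM in young and 22.4 to 50.8 TPM in old libraries, and their part in the difference of Ecscr was not tested. Ecscr alone averaged 64.3 TPM in young and 22.4 TPM in old libraries, and 85.6 and 39.1 TPM in the Aβ42+ sorts. Maged1, Nid2, Gm13889, Fam83g and Gm3960 made up the rest, with log2 fold changes of -1.49, -1.46, -1.44, -1.42 and -1.42 and adjusted p between 0.0371 and 0.0447. Nid2 encodes a basement membrane protein.

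**Figure D3:**
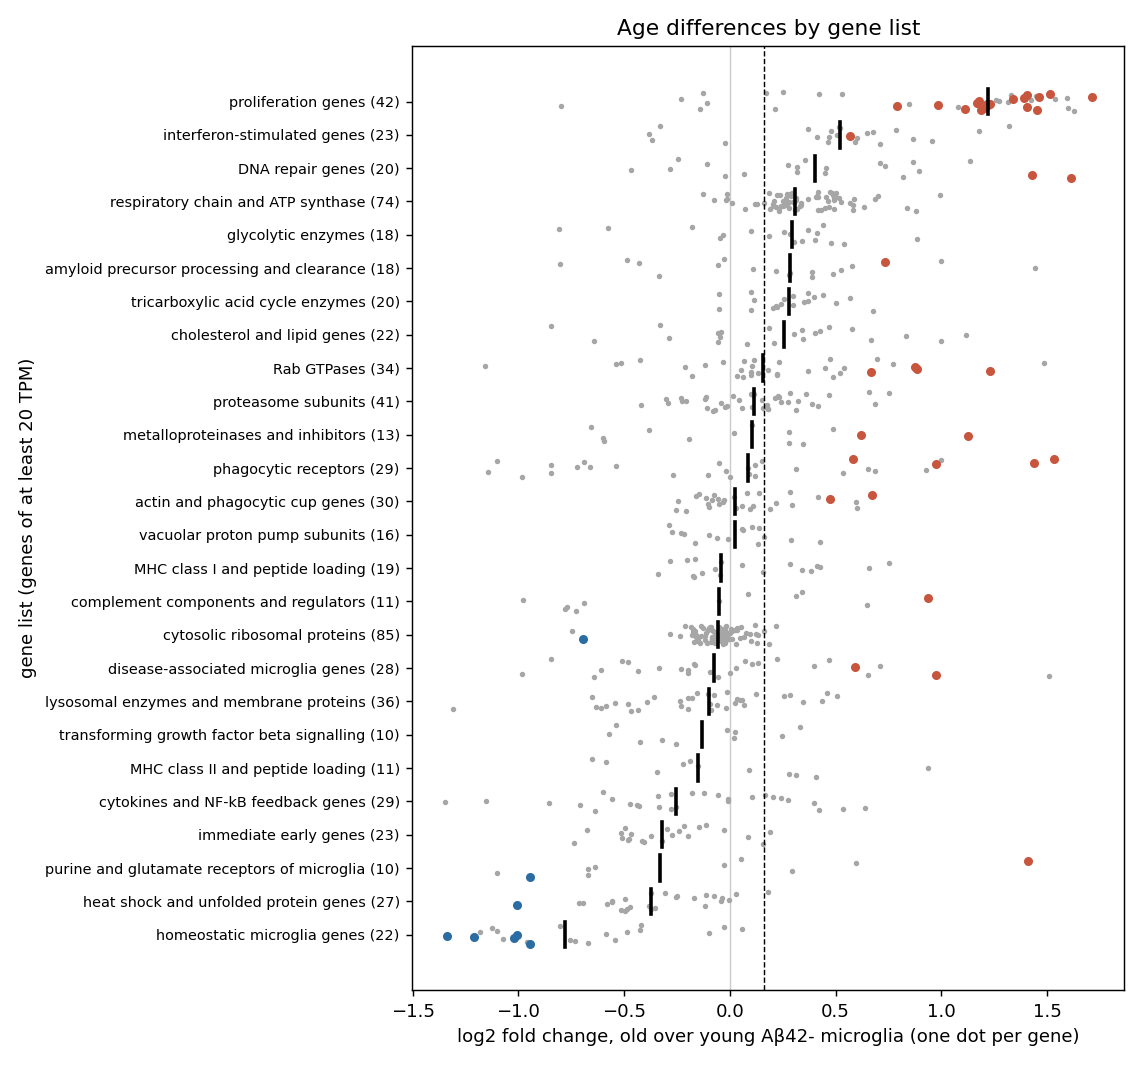
Log2 fold change, old over young, of every gene of at least 20 TPM in each of 26 gene lists, ordered by the median of the list (black bar), with genes called higher in red and called lower in blue. The dashed line is the median of all genes of at least 20 TPM, 0.16, and the proliferation list lies highest at 1.22 and the homeostatic microglia list lowest at -0.78.

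The proliferation list had the highest median of all lists in old against young Aβ42- libraries, which hold RNA of other cells than microglia as given above. Of 42 measured genes of the proliferation list 35 reached 20 TPM in both age groups. In the list 18 rose and 0 fell, 25 had every old library above every young one, and the median log2 fold change was 1.22, against 0.16 over all genes of at least 20 TPM. Mcm3, a subunit of the replicative helicase, read 173, 129, 132 and 133 TPM in young and 324, 323, 215 and 272 TPM in old libraries (log2 fold change 0.99 ± 0.16, adjusted p = 0.036). Its partner Mcm2 rose by log2 1.22 (adjusted p = 0.036). Cdca8, the borealin subunit of the chromosomal passenger complex, read 67.2, 63.3, 56.2 and 56.2 TPM in young and 196, 262, 100.4 and 183 TPM in old libraries (log2 fold change 1.52 ± 0.25, adjusted p = 0.036). Ccnb2, a mitotic cyclin, read 56.9, 53, 53.5 and 46.9 TPM in young and 159, 208, 81.9 and 144 TPM in old libraries (log2 fold change 1.41 ± 0.25, adjusted p = 0.039). In all of these the groups did not overlap, old replicate 3 was the lowest old library, and young replicate 1 was the highest young one in Mcm3. Pcna, the sliding clamp of DNA replication and the most abundant gene of the list, did not pass the test (log2 fold change -0.11 ± 0.086, adjusted p = 0.366). Taken by library, the median of the list relative to the young mean of each gene was 0.26, -0.037, -0.056 and -0.15 in young and 1.47, 1.61, 0.39 and 1.32 in old libraries, on the log2 scale.

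Markers of granulocyte precursors, a dividing cell type of the marrow, are given beside these values. Elane, the neutrophil elastase gene, read 524, 324, 448 and 402 TPM in young and 698, 779, 483 and 667 TPM in old libraries (log2 fold change 0.63 ± 0.18, adjusted p = 0.0901), and Mpo, myeloperoxidase, 534, 358, 442 and 402 and 699, 819, 528 and 688 TPM (log2 fold change 0.65 ± 0.16, adjusted p = 0.0623). The most changed of the 4, the cathepsin G gene Ctsg, read 298, 142, 180.3 and 163 and 519, 559, 263 and 437 TPM (log2 fold change 1.18 ± 0.28, adjusted p = 0.0578). None of these markers passed the test, all 4 were higher in old libraries on average, and old replicate 3 was the lowest old library in each. The 4 marker genes together summed to 1767, 1044, 1425 and 1315 TPM in young and 2569, 2865, 1676 and 2375 TPM in old replicates 1 to 4, and the part of these cells in the cell cycle difference was not tested. Of the mature neutrophil markers Cxcr2, the receptor that draws neutrophils to chemokine, rose by log2 0.89 (adjusted p = 0.036).

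**Figure D4:**
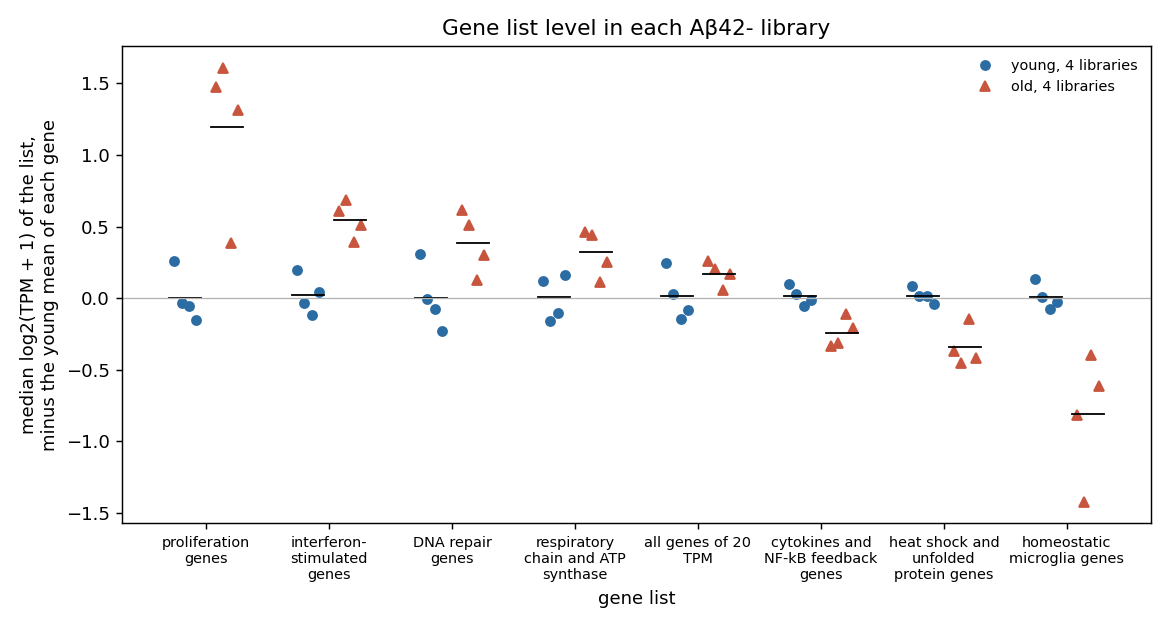
Median over each gene list of log2(TPM + 1) minus the young mean of each gene, with 1 point for each of 4 young and 4 old Aβ42- libraries and a black bar at the group mean, for 7 gene lists and for all genes of at least 20 TPM. Old replicate 3 (triangles from left to right are replicates 1 to 4) lies nearest the young libraries in every list shown.

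DNA repair genes were a smaller group, with 17 of 20 measured genes at 20 TPM in both age groups. Of the 20, 2 were higher and 0 lower, with a median of 0.40. One of these was Lig1, the ligase that joins Okazaki fragments in S phase, with 28.3, 22.5, 16.7 and 24 TPM in young and 79.6, 89, 32.9 and 64.3 TPM in old libraries and no overlap (log2 fold change 1.43 ± 0.30, adjusted p = 0.0479). The single-strand binding subunit Rpa2 and the mismatch repair gene Msh6 lay without overlap between the groups at 0.86 ± 0.19 and 0.89 ± 0.20, and did not pass (adjusted p = 0.0528 and 0.0536).

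Genes of resting microglia were lower. Of 22 measured genes of the homeostatic list 20 reached 20 TPM in both age groups. In the list 5 fell and 0 rose, 15 had every old library below every young one, and the median log2 fold change was -0.78 (-0.28 and -0.36 with the all-gene factors). The neutrophil and granulocyte precursor marker sums, given above, were higher in old libraries on average, and the part of the cell mixture in this difference was not tested. P2ry12, the purine receptor that guides microglial processes, read 117, 109, 102 and 106 TPM in young and 57.5, 39, 74.5 and 58.3 TPM in old libraries (log2 fold change -0.94 ± 0.18, adjusted p = 0.0433). Fcrls, an Fc receptor-like gene used as a microglial marker, read 271, 285, 304 and 285 TPM in young and 119, 68.4, 161 and 123 TPM in old libraries (log2 fold change -1.34 ± 0.22, adjusted p = 0.036). In both genes the lowest old library was replicate 2, the highest was replicate 3, and no old library reached a young one. The secreted glycoprotein genes Olfml3 and Sparc fell by 1.21 and 1.01 on the log2 scale (adjusted p = 0.0466 and 0.045), and the lysophospholipid receptor gene Gpr34, named here after its value was seen as the fifth called gene, by 1.02 (adjusted p = 0.0486). Tmem119, a membrane protein gene specific to microglia in brain, read 207, 166, 146 and 163 TPM in young and 95.7, 52.6, 114 and 98.1 TPM in old libraries without passing the test (log2 fold change -0.96 ± 0.23, adjusted p = 0.0589). Siglech and Cx3cr1 were lower, at log2 -1.07 and -0.73, also without passing (adjusted p = 0.0721 and 0.0612). By library the median of the list was 0.14, 0.0067, -0.074 and -0.03 in young and -0.81, -1.42, -0.39 and -0.62 in old libraries, relative to the young mean of each gene.

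Receptors and pathway genes tied to that state were mixed. Of 10 measured purine and glutamate receptor genes, P2ry12 fell and Nt5e, the ectonucleotidase CD73 that makes adenosine, rose, with 121, 101, 77.8 and 66.6 TPM in young and 243, 274, 199.5 and 246 TPM in old libraries (log2 fold change 1.41 ± 0.19, adjusted p = 0.032). P2ry6, the UDP receptor that triggers phagocytosis, and P2ry13 stood lower, at log2 -1.10 and -0.67 with no overlap and did not pass (adjusted p = 0.0579 and 0.0504). The median of the list was -0.33 (0.18 and 0.097 with the all-gene factors). In transforming growth factor β signalling 0 of 10 genes passed, 4 lay wholly below the young libraries, and the median was -0.13 (0.39 and 0.30 with the all-gene factors). Smad7, the feedback inhibitor of the pathway, was one of the 4 (log2 fold change -0.57 ± 0.18, adjusted p = 0.114).

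Genes of disease-associated microglia, the state described around plaques, lay on both sides of 0, and their calls were near the share over all genes of at least 20 TPM (6.36% higher). Of 28 measured genes 2 rose and 0 fell, and the median was -0.073 (0.44 and 0.36 with the all-gene factors). Clec7a, the β-glucan receptor dectin-1, read 79.7, 62.7, 59.6 and 55.5 TPM in young and 129, 132, 111 and 135 TPM in old libraries (log2 fold change 0.97 ± 0.14, adjusted p = 0.0336). Spp1, osteopontin, read 48.9, 52.6, 43.9 and 43.5 TPM in young and 69.5, 77.2, 70.4 and 69.2 TPM in old libraries (log2 fold change 0.59 ± 0.12, adjusted p = 0.045). Neither overlapped between the groups. Trem2, the lipid and Aβ receptor that the study followed further and chose from these libraries, read 245, 229, 250.0 and 262 TPM in young and 126, 74.6, 173 and 146 TPM in old libraries. No old library reached a young one, and the test was missed narrowly (log2 fold change -0.98 ± 0.22, adjusted p = 0.0536). With the replicate number as a block, a limma fit that called 1540 genes higher and 552 lower, its adjusted p was 0.0286. Young and old pools of a number hold different mice, so this block is no pairing of mice. Further limma fits gave Trem2 an adjusted p of 0.0444 with trimmed mean factors from genes of at least 20 TPM. With the background level subtracted it was 0.0846 and with that level as a covariate 0.183, so the call depended on the fit. Cst7, the cysteine protease inhibitor cystatin F, read 84.5, 42.1, 65.4 and 51.2 TPM in young and 232, 264, 82.8 and 162 TPM in old libraries, with old replicate 3 inside the young range (log2 fold change 1.51 ± 0.35, adjusted p = 0.0565).

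Among 29 measured phagocytic receptors 27 reached 20 TPM in both age groups. Of the 29, 4 rose, 0 fell, and 7 lay wholly above and 7 wholly below the young libraries. Besides Clec7a these were Cd93, a receptor in the clearance of apoptotic cells, Olr1, the oxidised LDL receptor, and Cd33, a sialic acid-binding inhibitory receptor. Cd93 read 109.7, 69.4, 62 and 73.5 TPM in young and 238, 263, 135 and 232 TPM in old libraries (log2 fold change 1.44 ± 0.24, adjusted p = 0.036). Olr1 and Cd33 rose by log2 1.53 and 0.58 (adjusted p = 0.0471 and 0.0479). Olr1, with a young mean of 16.1 TPM, reached 20 TPM only through the old libraries. The median of the list was 0.085 (-0.079 with factors from genes of at least 20 TPM), near that of all genes of at least 20 TPM. The granulocyte precursor, neutrophil, monocyte and B cell marker sums, given above, were higher in old libraries on average. All 11 neutrophil and all 7 monocyte markers had a fold change above 0, and 4 and 3 of them did not overlap. The share of the receptor rises that came from other cells was not tested.

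Complement genes lay on both sides of 0. Of 11 measured genes Cfp, the properdin gene that stabilises the alternative pathway convertase, rose from 212, 156, 149 and 188 TPM in young to 394, 399, 253 and 319 TPM in old libraries (log2 fold change 0.94 ± 0.17, adjusted p = 0.0414). C3 was higher by log2 0.65 ± 0.14 with no overlap (adjusted p = 0.0515), and the C1q chains C1qb and C1qa were lower, at log2 -0.78 ± 0.19 and -0.73 ± 0.19 with no overlap (adjusted p = 0.0612 and 0.0766), none of which passed. In the list 3 genes lay wholly above and 5 wholly below the young libraries. Lysosomal genes had 0 of 36 called, 1 wholly above, 7 wholly below and a median of -0.098 (0.42 and 0.34 with the all-gene factors), and the lowest of them was the cathepsin gene Ctsf (log2 fold change -1.31 ± 0.31, adjusted p = 0.0593). Subunits of the vacuolar proton pump, which acidifies the lysosome, had 0 of 16 called and a median of 0.024 (-0.14 with factors from genes of at least 20 TPM).

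Heat shock and protein folding genes stood low among the lists. Of 27 measured genes 1 fell, 0 rose, 9 had every old library below every young one, and the median was -0.37 (0.15 and 0.067 with the all-gene factors). The gene that fell was Hspb1, a small heat shock protein, with 627, 678, 713 and 714 TPM in young and 377, 232, 456 and 331 TPM in old libraries (log2 fold change -1.01 ± 0.18, adjusted p = 0.0404). The mitochondrial co-chaperonin Hspe1 and the co-chaperone Dnajb1 were lower, at log2 -0.69 ± 0.15 and -0.56 ± 0.12 with no overlap and did not pass (adjusted p = 0.052 and 0.052). By library the median of the list was 0.087, 0.014, 0.012 and -0.044 in young and -0.37, -0.45, -0.14 and -0.42 in old libraries, relative to the young mean of each gene, with the groups apart.

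Immediate early genes had 0 of 23 called, 3 wholly below and none wholly above the young libraries, and a median of -0.32 (0.20 and 0.12 with the all-gene factors). The phosphatase gene Dusp1 was the strongest of them by p (log2 fold change -0.52 ± 0.13, adjusted p = 0.0644). Cytokines and NF-kB feedback genes had 0 of 29 called, 3 wholly above, 7 wholly below and a median of -0.25 (0.27 and 0.18 with the all-gene factors). The chemokine Ccl7 read 242, 201, 247 and 208 TPM in young and 89, 42, 151 and 102 TPM in old libraries (log2 fold change -1.35 ± 0.32, adjusted p = 0.0592). Ccl5 and the cytokine Il1a were lower, at log2 -0.86 ± 0.19 and -0.64 ± 0.16, and the interleukin 1 receptor antagonist Il1rn was higher by log2 0.53 ± 0.12, all with no overlap (adjusted p = 0.0528, 0.0674 and 0.0561). Gzma, a granule protease of NK and T cells, fell from 295, 271, 214 and 322 TPM in young to 118, 98.4, 145 and 74 TPM in old libraries (log2 fold change -1.36 ± 0.21, adjusted p = 0.0344).

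Interferon-stimulated genes had a median above that of all genes of at least 20 TPM. Of 23 measured genes 19 reached 20 TPM in both age groups. In the list 1 rose, 0 fell, 10 had every old library above every young one, and the median was 0.52. Ifitm2, a membrane protein that hinders virus entry, read 382, 319, 371 and 373 TPM in young and 554, 582, 508 and 501 TPM in old libraries (log2 fold change 0.57 ± 0.095, adjusted p = 0.0367). The related gene Ifitm3 was higher by log2 0.50 ± 0.11 with no overlap and just short of the threshold (adjusted p = 0.0532). Samd9l read 106, 78.6, 67.7 and 32.8 TPM in young and 189, 183, 127 and 173 TPM in old libraries (log2 fold change 1.32 ± 0.31, adjusted p = 0.0581). Ifit1, whose promoter is shown above and which was chosen for that after its value was seen, was higher by log2 0.71 ± 0.20 (adjusted p = 0.088). By library the median of the list was 0.19, -0.031, -0.12 and 0.045 in young and 0.61, 0.68, 0.39 and 0.51 in old libraries, relative to the young mean of each gene. Antigen presentation genes had medians nearer 0. MHC class I genes had 0 of 19 called and a median of -0.042 (0.47 and 0.39 with the all-gene factors), although the immunoproteasome subunit Psmb9 and the peptide transporter Tap1 were higher with no overlap (0.75 ± 0.17 and 0.66 ± 0.16, adjusted p = 0.0522 and 0.0614). MHC class II genes had 0 of 11 called, 0 wholly above, 2 wholly below and a median of -0.15 (0.36 and 0.28 with the all-gene factors).

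Nuclear genes of mitochondrial energy metabolism had list medians above 0 and no single calls. Of 74 measured genes of the respiratory chain and ATP synthase 0 passed, and 69 had a fold change above 0, against 5111 of all 8187. Of the 74, 18 lay wholly above and 0 wholly below the young libraries, against 15.9% and 7.88% of all genes of at least 20 TPM. The median was 0.31, against 0.16 over all genes of at least 20 TPM. The complex I subunits Ndufb3 and Ndufs5 were higher by log2 0.88 ± 0.20 and 0.64 ± 0.14 with no overlap (adjusted p = 0.0556 and 0.05003). Of 20 enzymes of the tricarboxylic acid cycle 0 passed and the median was 0.28. In 4 of the 20 every old library lay above every young one, a share near the 15.9% of all genes of at least 20 TPM. Cs, citrate synthase, read 238, 195, 161 and 189 TPM in young and 354, 345, 249.5 and 305 TPM in old libraries (log2 fold change 0.68 ± 0.15, adjusted p = 0.052), and the succinate dehydrogenase subunit Sdhd was higher by log2 0.57 ± 0.14 (adjusted p = 0.0644). Glycolytic genes had 0 of 18 called and a median of 0.30, with Gpi1 higher by log2 0.34 ± 0.092 and the lactate dehydrogenase subunit Ldhb and the glucose transporter Slc2a1 lower, at log2 -0.81 ± 0.20 and -0.58 ± 0.14 (adjusted p = 0.0793, 0.0614 and 0.0632). After subtraction of the background level the medians of the respiratory chain and the cycle enzymes were 0.24 and 0.20, against 0.14 over all genes of at least 20 TPM.

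Of 18 measured genes of amyloid precursor processing and clearance, Sorl1, the sorting receptor that keeps the precursor from cleavage, rose and 0 fell, and the median was 0.28. Of the 18, 14 reached 20 TPM in both age groups. Sorl1 read 221, 184, 168 and 180.3 TPM in young and 324, 356, 249 and 332 TPM in old libraries (log2 fold change 0.73 ± 0.14, adjusted p = 0.042). In the Aβ42+ sorts Sorl1 averaged 58.0 TPM in young and 123 TPM in old libraries. The part of cells other than microglia in its rise was not tested. The γ-secretase subunit Aph1b was higher and the endocytic gene Bin1 lower with no overlap (1.44 ± 0.34 and -0.81 ± 0.22, adjusted p = 0.0561 and 0.0815). Neither passed the test. Aph1b averaged at least 20 TPM only in the old libraries and Bin1 only in the young ones, so each was included through its higher group. App, the precursor itself, read 58.1, 49.6, 49.1 and 55.4 TPM in young and 71.4, 78.2, 59.7 and 70.7 TPM in old libraries (log2 fold change 0.39 ± 0.13, adjusted p = 0.125), apart between the ages but not called. The α-secretase Adam17 and the γ-secretase subunit Psen2 overlapped between the groups, at log2 0.49 ± 0.18 and 0.39 ± 0.19 (adjusted p = 0.165 and 0.224). App, Adam17 and Psen2 are named because the study names them from the same libraries, which is no independent evidence of their direction. Psen2 also averaged at least 20 TPM only in the old libraries.

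Metalloproteinases are enzymes that cut matrix and surface proteins. Of 13 measured genes of the list Mmp25 and Adam8, both known from leukocytes, rose, 0 fell, and the median was 0.10 (-0.06 with factors from genes of at least 20 TPM). Mmp25 read 73.3, 50.8, 48.2 and 50.2 TPM in young and 133, 149, 85.9 and 126 TPM in old libraries (log2 fold change 1.13 ± 0.20, adjusted p = 0.0392), and Adam8 rose by log2 0.62 (adjusted p = 0.0414). Mmp8, the neutrophil collagenase and one of the neutrophil markers, was higher by log2 0.35 ± 0.085 without passing (adjusted p = 0.0633). All 10 metalloproteinase genes that the study names from this comparison had a mean under 20 TPM and were not among the genes described.

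Ribosomal protein and proteasome genes had 1 call between them. Of 85 measured cytosolic ribosomal protein genes 1 fell, 0 rose, and the median was -0.055 (0.47 and 0.38 with the all-gene factors). The 1 gene was Rps4l (log2 fold change -0.69 ± 0.13, adjusted p = 0.0433), a near copy of Rps4x, so that its reads are uncertain. Proteasome subunits had 0 of 41 called, 5 wholly above, 2 wholly below and a median of 0.11 (-0.05 with factors from genes of at least 20 TPM), with the lid subunit Psmd13 at 0.68 ± 0.16 (adjusted p = 0.0555). Among Rab GTPases, which direct vesicle traffic, 4 of 34 rose and 0 fell, namely Rab3d, Rab27a, Rab6a and Rab5b by log2 1.23, 0.88, 0.67 and 0.88 (adjusted p = 0.0424, 0.0424, 0.045 and 0.0498). Rab27a and Rab3d act in the release of secretory granules. The median of the Rab list was 0.16 (-0.0086 with factors from genes of at least 20 TPM), that of all genes of at least 20 TPM. Of 30 actin and phagocytic cup genes the myosin Myo1f and the GTPase Rac2 rose by log2 0.67 and 0.47 (adjusted p = 0.045 and 0.0483), 0 fell, a share near that of all genes of at least 20 TPM (6.36% higher), and the median was 0.025 (-0.14 with factors from genes of at least 20 TPM). Both encode proteins of leukocyte motility. Cholesterol and lipid genes had 0 of 22 called, 5 wholly above the young libraries and a median of 0.26.

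The last comparison asked whether the age difference was the same in cells that had taken up Aβ42. The Aβ42+ libraries came from the same pools of mice, and 1 model of all 16 libraries tested the difference between the age differences of the sorts. It called 4 of 34492 genes (0.0116%), 1 of them of at least 20 TPM, the short RNA gene Mir6395, named after its value was seen, and 1780 genes of at least 20 TPM had an unadjusted p under 0.05. Mir6395 read at most 13.8 TPM in any young Aβ42- library, so it reached 20 TPM only through the old libraries. With the pool of mice as a block the model called 12733 genes (36.9%), among them 1544 of at least 20 TPM with a higher and 596 with a lower age difference in Aβ42- cells, so that the call depended on this choice. Over the 31982 genes tested in the Aβ42- libraries the blocked calls ran the other way, with 1831 higher and 10286 lower. The block with trimmed mean factors gave 926 and 841, and the block with the background level subtracted 96 and 269. Side by side, the median log2 fold change with age was 0.16 in Aβ42- and -0.14 in Aβ42+ libraries over the genes of at least 20 TPM. Proliferation genes had medians of 1.22 and 0.96, homeostatic genes of -0.78 and -0.71, heat shock genes of -0.37 and -0.30, and interferon-stimulated genes of 0.52 and 0.12. Of these 4 lists 0 genes passed the unblocked test of the difference. With the block 1 of 42, 1 of 22, 0 of 27 and 5 of 23 passed, all with the higher value in Aβ42- cells. List counts with the block are to be read against 1544 higher and 596 lower among all 8187 genes of at least 20 TPM. Rab GTPases had medians of 0.16 and -0.27, with 0 of 34 genes called unblocked and 5 higher and 1 lower with the block. Trem2 had a log2 fold change of -0.98 in Aβ42- and of -0.58 in Aβ42+ libraries, and the difference did not pass in either model (adjusted p = 0.369, and 0.359 with the block). Cst7, at 1.51 and 0.45, passed with the block only (adjusted p = 0.247, and 0.0175 with the block).

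**Figure D5:**
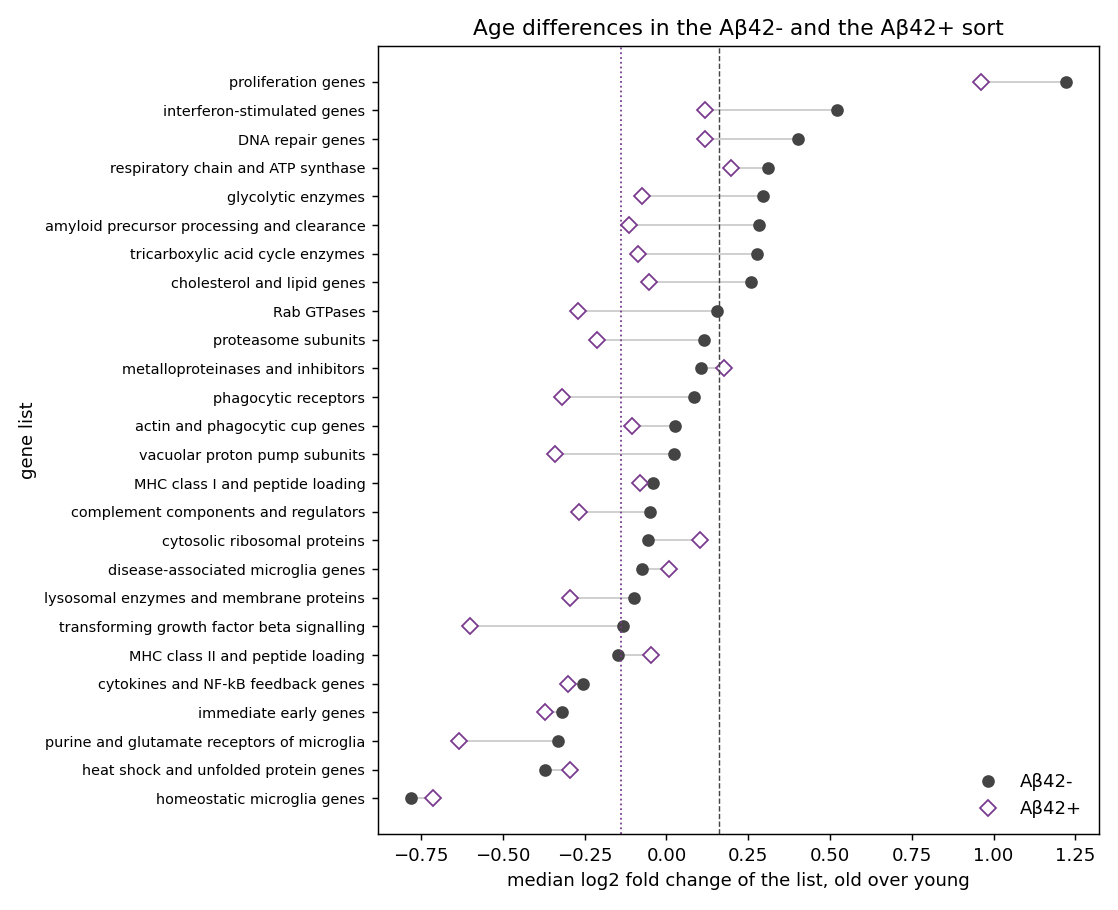
Median log2 fold change, old over young, of 26 gene lists in the Aβ42- sort (filled circles) and the Aβ42+ sort (open diamonds), with the median of all genes of at least 20 TPM as a dashed line for Aβ42- and a dotted line for Aβ42+. Proliferation genes lie highest and homeostatic microglia genes lowest in both sorts.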

How the data were processed

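Microglia of 4 young and 4 old pools of mice were sorted by uptake of Aβ42, and RNA from the Aβ42- sorts was sequenced from 1 end. The authors trimmed reads with Trim Galore 0.4.2 and cutadapt 1.9.1 after FastQC 0.11.5, aligned them to mm10 with STAR 2.5.2a, removed duplicates with Picard 1.89, assigned reads to RefSeq genes by featureCounts and deposited TPM, whose sum is the same in each library. TPM keep no record of depth, so that it is unknown here and counting intervals are not given. Whether counting used the strand was not given in the sources used here, so overlapping and antisense genes cannot be told apart. The count model of the study was not used, since the values are not counts.

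Log2(TPM + 1) of every gene with at least 1 TPM in at least 4 libraries was fitted with limma 3.58.1 in R 4.3.3 (mean-variance trend, two-sided, Benjamini-Hochberg adjustment over all genes tested, threshold 0.05), and the fold changes of low genes are understated by the 1 TPM added. Single values were compared by exact two-sided permutation tests, which cannot go below 0.0286 with 4 against 4 libraries. The dependence of the age difference on uptake was a contrast in 1 limma model of all 16 libraries. Tables and figures were made in Python 3.11.15. Named genes were the 10 largest called changes in each direction without overlap, up to 4 genes of lowest p and 2 of highest TPM in each of 27 lists, genes named by the study and the markers of 13 cell types. Not all of them are printed, and some are not reported here. The list of mitochondrially encoded genes matched 0 symbols. Members and lists were chosen with earlier results of these data known. The positive and negative sorts of a number came from the same pool by their titles. Young and old pools of 1 number hold different mice, and the correlations of their residuals were 0.57, -0.062, 0.41 and 0.028, so they were not taken as paired. The background level was lowest in replicate 1 and highest in replicate 3 in both ages and both sorts, and a fit with the number as a block is given below. Alternatives covered scaling, background, the value added, filters, the trend, blocks, limits on TPM and each library left out. In a test on simulated data over 31670 genes, 46% and 60% of genes changed by -1 and 1 on the log2 scale were recovered. At -2 and 2 the shares were 92% and 84%, and 8 unchanged genes were called. How far these values describe the measured libraries, where the count of calls rested on single libraries, was not tested.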

Additional observations from a re-analysis of the deposited data

Results flagged for a closer look

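Of 224 values tested within a group of 4, 14 had 1 library far from the other 3, and chance alone marks about 1 in 20 groups. Young replicate 4 read 737.7 TPM of Ttr, the transthyretin gene of the choroid plexus, against 33.7 to 45.3 TPM in the other young libraries, and with it 886.5 TPM of summed choroid plexus markers, 5038 TPM of summed erythroid markers and 127 TPM of Ldhb. Young replicate 1 was high in Gm35498 (58.9 TPM), Mcm3 (173 TPM), Mmp25 (73.3 TPM) and the summed border-associated macrophage markers (95.7 TPM). Old replicate 3 was low in Gm35498 (151 TPM) and Abca13 (24.7 TPM). Ecscr was low in young replicate 3 (51.3 TPM), Ifit1 was low in young replicate 2 (12.4 TPM), and Spp1 was high in old replicate 2 (77.2 TPM). Mir6395 was at 13.8 TPM in young replicate 2 and listed at 0 in the other 3 young libraries, and its age difference was higher in Aβ42- than in Aβ42+ cells by 8.79 on the log2 scale. Mir6395 therefore reached a mean of 20 TPM only through the old libraries.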

How the results depend on the processing

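The count of called genes of at least 20 TPM moved with most choices. The fold changes of the called genes, which were chosen from the same libraries, kept their sign as given in the report. Against 521 higher and 73 lower, the counts were 24 and 0 with upper quartile factors, 1 and 0 with trimmed mean factors from all genes or median-of-ratios factors, 53 and 3 with the background level subtracted, 15 and 0 with it as a covariate, 325 and 39 with 0.1 TPM added, 325 and 38 with no filter, 1150 and 312 with a filter of a mean of 5 TPM, and 2 and 0 with no trend. Only the lower count moved by over 1.5 times with trimmed mean factors from genes of at least 20 TPM (400), quantile normalization (314) and all 16 libraries (196). With 1 library left out, the higher count lay between 0 and 2652 and the lower between 0 and 869. With the replicate number of young and old pools as a block the counts were 1540 and 552. Only 2 of 4 numbers had a correlation above 0.1. The background level was lowest in replicate 1 and highest in replicate 3 in both ages and both sorts. Whether young and old pools of a number were handled together is not known from the labels.

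Genes of at least 20 TPM whose age difference depended on uptake numbered 1, and 2140 with the pool as a replicate block, 1767 with the block and trimmed mean factors, 365 with the block and the background level subtracted (both chosen after seeing the data), 0 with trimmed mean factors, 0 with the background level subtracted, 0 with 0.1 TPM added, and 0 to 3 with 1 library left out. List medians that changed sign with scaling are given in the report beside the median, except those of complement genes and the further settings of lists near 0. Among the single genes printed, values that changed sign were those of Ttr, at -1.17 to 0.30 with 1 library left out and above 0 without young replicate 4, Pcna with median-of-ratios factors (0.33) and with trimmed mean factors from all genes (0.41), and Dusp1 with the latter (0.0057). Of the list medians under the alternatives, 455 moved by less than the spread between replicates and 91 by more. The causes were not tested. Depth is unknown, which limits every low value.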
